A study of Homo sapiens with 4 samples.

Results

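Clustered protocadherins are cell-surface proteins of the cadherin superfamily, encoded in 3 neighbouring gene clusters (alpha, beta and gamma) on human chromosome 5. The members were the protein-coding genes on chromosome 5 whose symbol was PCDHA, PCDHB, PCDHGA, PCDHGB or PCDHGC, followed by a number or, in the alpha cluster, by C and a number. This rule, which used no measured value, found 53 of the 58735 genes in the tables. The alpha cluster held 15 members, which are 13 alternate genes and the C-type genes PCDHAC1 and PCDHAC2. The beta cluster held 16 members, and the gamma cluster held 22, of which 12 were of the A type, 7 of the B type and 3 of the C type. In GENCODE release 29 on GRCh38 the members lay on the plus strand between chr5:140786136 and chr5:141512981, a span of 727 kb.

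Each alternate or C-type gene of the alpha and gamma clusters has its own promoter and a long first exon, which encodes the cadherin repeats and the transmembrane segment. That exon is spliced to constant exons shared by the whole cluster, whereas beta genes are made of an exon of their own with no constant part. In neurons, each cell uses only some of the promoters, by a choice that involves CTCF, cohesin and DNA methylation, and the isoforms bind the same isoforms on other cells, which lets a neuron tell its own branches from those of others.

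MHCC-97H, an established metastatic hepatocellular carcinoma line labelled as wild type, was sequenced after 24 h in 4 conditions, with 1 library each. One culture received PBS. The others received 2 μg of migrasomes (Migs, vesicles left on retraction fibres by moving cells) that the same line had released in normoxia (normo-Migs), that it had released in hypoxia (hypo-Migs), or that a CD147-knockout derivative had released in hypoxia (CD147KO-Migs). CD147 (BSG) is a membrane glycoprotein, and its knockout was in the cells that released the Migs, so these libraries do not check it. The oxygen level used for these Migs and the number of knockout clones were not given in the sources used here.

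Reads on genes numbered 33882496 to 40285223 per library, and a count of 0 allowed up to 3 reads, or 0.0747 to 0.0880 reads per 1000000 (CPM, scaled by TMM). There were no replicates, so the spread between cultures is unknown and every interval and floor here covers counting error only. Reads carried no molecular identifiers and may repeat a molecule. Even counts were in excess: among members, 94 of 136 values above 0 were even (69.1%), and 2058 genes had 2 reads in the PBS library while 1499 had 1 read. Over all genes the excess was smaller, with 56.4% of the counts from 1 to 20 even. Where mates of a pair were counted separately, intervals from reads are too narrow, so intervals from read pairs (reads divided by 2) are given as well. The library labelled PBS stood apart from the others. It had 3 or fewer reads on 251 genes that had at least 100 reads in each other library, whereas no gene was missing in this way from only 1 of the Mig libraries. Of 10 hepatocyte markers, ALB, APOB, TTR and AFP had 0 reads in all libraries, and the summed level of the list was 4.66 CPM in PBS and 20.8 to 28.5 CPM in the Mig libraries. For comparison, the summed level of 6 fibroblast markers was 23.2 CPM in PBS and 160 to 168 CPM with Migs, with none at 0 in every library. For 6 neuronal markers it was 4.20 CPM and 32.7 to 36.1 CPM, with STMN2 and DCX at 0 throughout. For 5 endothelial markers it was 3.42 CPM and 4.34 to 5.54 CPM, and for 4 immune markers 0.637 CPM and 1.44 to 2.51 CPM, with CD3E at 0 throughout. The hepatocyte rise was that of FGB, a fibrinogen chain (0 CPM in PBS and 16.5, 20.6 and 23.8 CPM with normo-Migs, hypo-Migs and CD147KO-Migs), and without it the list summed to 4.66 CPM in PBS and 4.34, 6.40 and 4.71 CPM with Migs. COL1A1 and PDGFRB made up most of the fibroblast sum, and SNAP25 and MAP2 most of the neuronal sum. The endothelial markers were split, with PECAM1 at 16, 118, 146 and 131 reads but CDH5 at 84, 30, 72 and 59 and TEK at 11, 0, 3 and 0, in the order PBS, normo-Migs, hypo-Migs and CD147KO-Migs. Of the 4 immune markers only CD14 reached 10 reads in a library, so it was the only one that could be called, and it was called higher than in PBS. The part of these genes in the results was not tested, nor was it tested whether the library labelled PBS came from the same line as the others, so ratios to PBS rest on its label. Each comparison against PBS used that same library, so the comparisons between Mig libraries, which do not use it, are given for each result. In bulk RNA, fewer cells with a transcript and less transcript per cell cannot be told apart.

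The promoters of 5 members are shown because these genes carried the differences described next. PCDHA4 had the most reads of the alpha cluster and PCDHAC1 is a C-type gene. PCDHB13 had the most reads of all members. PCDHGA1 and PCDHGA6 led the gamma cluster in different libraries. The windows are from RefSeq (GRCh38.p14), 250 bases before to 50 after the annotated start, 5′ to 3′, and capitals mark each CGCT, or its reverse complement AGCG, the core letters of an element common to protocadherin promoters.
PCDHA4 (chr5:140806818-140807117, strand +): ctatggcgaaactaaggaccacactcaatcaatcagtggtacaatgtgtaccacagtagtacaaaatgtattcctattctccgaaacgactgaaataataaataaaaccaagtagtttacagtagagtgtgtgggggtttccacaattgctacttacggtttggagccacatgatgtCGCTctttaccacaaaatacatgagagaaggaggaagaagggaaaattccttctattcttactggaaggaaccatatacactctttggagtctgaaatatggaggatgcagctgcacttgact
PCDHAC1 (chr5:140926049-140926348, strand +): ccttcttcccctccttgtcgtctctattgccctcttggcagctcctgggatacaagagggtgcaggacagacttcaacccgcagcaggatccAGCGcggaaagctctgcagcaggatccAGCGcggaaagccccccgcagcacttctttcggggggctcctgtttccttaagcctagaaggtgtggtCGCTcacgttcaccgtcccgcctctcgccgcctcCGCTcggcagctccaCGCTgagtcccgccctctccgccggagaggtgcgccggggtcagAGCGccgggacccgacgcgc
PCDHB13 (chr5:141213669-141213968, strand +): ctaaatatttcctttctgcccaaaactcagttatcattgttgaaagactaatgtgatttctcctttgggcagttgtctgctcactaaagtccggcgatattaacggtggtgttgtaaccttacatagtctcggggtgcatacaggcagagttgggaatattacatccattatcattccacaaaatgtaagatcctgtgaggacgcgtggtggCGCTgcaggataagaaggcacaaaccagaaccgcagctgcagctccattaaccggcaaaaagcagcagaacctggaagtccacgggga
PCDHGA1 (chr5:141330264-141330563, strand +): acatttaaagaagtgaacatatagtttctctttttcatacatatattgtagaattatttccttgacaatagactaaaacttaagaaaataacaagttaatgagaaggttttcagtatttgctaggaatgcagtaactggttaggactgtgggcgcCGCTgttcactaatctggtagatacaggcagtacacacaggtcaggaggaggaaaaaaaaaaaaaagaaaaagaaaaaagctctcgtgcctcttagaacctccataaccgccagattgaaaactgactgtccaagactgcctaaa
PCDHGA6 (chr5:141373641-141373940, strand +): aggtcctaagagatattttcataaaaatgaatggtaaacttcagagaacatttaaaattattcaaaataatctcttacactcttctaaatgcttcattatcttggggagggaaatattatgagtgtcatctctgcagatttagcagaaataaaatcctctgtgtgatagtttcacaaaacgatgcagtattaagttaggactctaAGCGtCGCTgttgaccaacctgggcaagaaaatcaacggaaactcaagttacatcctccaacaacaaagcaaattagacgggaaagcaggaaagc
RefSeq windows were matched for 47 of the 53 members (52 windows, since 5 genes had more than 1). PCDHA3, PCDHA13, PCDHB6, PCDHB11, PCDHGA12 and PCDHGC5 had no window in the table. CGCT on either strand was found in 51 of the 52 windows (98.1%) and in 70.0% of all 35116 windows of this length. PCDHA9 was the member without it. PCDHA9 had 0 reads in every library, as had PCDHB1, PCDHGC4 and PCDHGC5, and the windows of PCDHB1 and PCDHGC4 held CGCT. Windows of alternate, beta and gamma A or B members had a median GC content of 39.7% (32.3% to 65.0%), against 58.7% over all windows. CGCT was in 58.8% of all windows within that range of GC content. The windows of C-type genes were richer in GC, with 59.0% to 66.0% and 15 to 27 CpG dinucleotides, and the difference is visible between the PCDHAC1 and PCDHA4 sequences. No word of 8 letters was found in most members. The words held by the most members were overlapping forms of the same sequence. AGCGCCAC, or its reverse complement GTGGCGCT, was in 13 members and in 1.15% of all windows, and GCGCCACC was in 13 members and in 2.23% of all windows. All 13 holders of these words were beta genes. CAGCGCCA was in 12 beta genes and PCDHGB4, and in 1.91% of all windows. These words contain AGCG or overlap it. The matches describe the letters of these windows and say nothing of factors bound there.

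The 53 members had low or no expression, and 4 of them had 0 reads in every library. The highest value was 0.594 FPKM (fragments per kb of gene length per 1000000 reads), for PCDHB13 in PBS, and 76.8% of the genes that reached 10 reads somewhere had a higher maximum. In PBS the 3 highest members per length were PCDHB13, PCDHB15 (0.497 FPKM) and PCDHB14 (0.443 FPKM). With normo-Migs they were PCDHB2 (0.190 FPKM), PCDHB14 (0.157 FPKM) and PCDHA4 (0.0996 FPKM). With hypo-Migs they were PCDHGA1 (0.186 FPKM), PCDHGB1 (0.0983 FPKM) and PCDHAC1 (0.0783 FPKM), and with CD147KO-Migs they were PCDHB15 (0.239 FPKM), PCDHGC3 (0.135 FPKM) and PCDHGA1 (0.113 FPKM). Hence 3 beta genes led in PBS, while members of other clusters were among the leaders in each Mig library. The gene length includes the shared exons, which made up a median of 46.5% of the exon bases of alpha members and 43.9% of those of gamma members. At most 9.43% was shared for any beta member. How reads on shared exons were assigned was not given in the sources used here. PCDHA9, PCDHGC4 and PCDHGC5 had 0 reads in every library despite 2866, 2181 and 2181 shared exon bases. Any reads there were therefore not counted for every gene that shares them. If they were dropped, FPKM over the full gene length is too low for alpha and gamma members relative to beta members. When levels were taken per kb of exon bases that no other gene shares, 5 of the 5 highest members were kept in PBS, 3 in normo-Migs, 3 in hypo-Migs and 4 in CD147KO-Migs.

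The cluster sums showed different directions in the 3 clusters. The alpha cluster had 6 reads in PBS, and 135, 136 and 127 reads with normo-Migs, hypo-Migs and CD147KO-Migs. The level was 0.174 CPM in PBS (exact 95% Poisson interval 0.0638 to 0.378) and 3.39 to 3.96 CPM in the Mig libraries. The alpha sum was thus 22.8-fold higher with normo-Migs than with PBS (exact 95% interval 10.2 to 63.2), 19.5-fold higher with hypo-Migs (8.73 to 54.0) and 20.9-fold higher with CD147KO-Migs (9.32 to 57.9). The beta cluster had 388 reads in PBS, and in the Mig libraries 107 (normo-Migs), 55 (hypo-Migs) and 88 (CD147KO-Migs). Its sum was 3.58-fold lower with normo-Migs than with PBS (2.88 to 4.48), 8.20-fold lower with hypo-Migs (6.17 to 11.1) and 4.47-fold lower with CD147KO-Migs (3.54 to 5.71). The gamma cluster had 126, 118, 149 and 145 reads in the same order. Its log2 ratio to PBS was -0.08 with normo-Migs (-0.45 to 0.30), 0.02 with hypo-Migs (-0.33 to 0.38) and 0.18 with CD147KO-Migs (-0.17 to 0.54), so these data bound its difference but do not show that the sums were equal. Without PCDHGA1, the gamma member with the most reads, the log2 ratio of hypo-Migs was -0.52 to PBS (-0.91 to -0.13) and -0.43 to CD147KO-Migs (-0.83 to -0.04). PCDHGA1 had 0, 13, 47 and 25 reads, so leaving it out had to lower the hypo-Migs sum most. These values therefore show only how far the gamma sum rests on that member, and no interval on read pairs was computed for them. The intervals of the alpha and beta ratios to PBS also excluded 1 when computed from read pairs.

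Among the Mig libraries, beta was the only one of the 3 cluster sums with a ratio whose interval excluded 1. With hypo-Migs it was 2.29-fold lower than with normo-Migs (1.64 to 3.23) and 1.83-fold lower than with CD147KO-Migs (1.29 to 2.62). On read pairs, the log2 intervals of these 2 ratios were -1.92 to -0.51 and -1.62 to -0.16. CD147KO-Migs against normo-Migs gave a log2 ratio of -0.32 (-0.75 to 0.10) for beta. PCDHB15 had 12, 12 and 34 reads with normo-Migs, hypo-Migs and CD147KO-Migs and was left out after its reads were seen. Leaving it out therefore had to lower the CD147KO-Migs sum most among the Mig libraries. Without it, the beta log2 ratio of hypo-Migs was -0.53 to CD147KO-Migs (-1.14 to 0.08) and -1.38 to normo-Migs (-1.93 to -0.85), and that of CD147KO-Migs to normo-Migs was -0.85 (-1.36 to -0.36). Without the beta members that overlap a gene on the other strand, the ratio of hypo-Migs to CD147KO-Migs was -0.43 (-1.21 to 0.34). The difference between hypo-Migs and CD147KO-Migs was therefore not detectable without PCDHB15 or without those members. The values without PCDHB15 show only how far the beta sums rest on that member. No interval on read pairs was computed for the ratios with members left out. The 2 comparisons of hypo-Migs share the hypo-Migs library. The alpha ratios between Mig libraries were -0.23 (-0.58 to 0.13) for hypo-Migs against normo-Migs, -0.10 (-0.46 to 0.26) for hypo-Migs against CD147KO-Migs and -0.13 (-0.49 to 0.23) for CD147KO-Migs against normo-Migs, on the log2 scale. For gamma they were 0.10 (-0.26 to 0.46), -0.16 (-0.50 to 0.18) and 0.26 (-0.10 to 0.62). The share of each cluster in all member reads followed: beta genes held 74.6% of the 520 member reads in PBS (Wilson 95% interval 70.7% to 78.2%), 29.7% with normo-Migs (25.2% to 34.6%), 16.2% with hypo-Migs (12.6% to 20.5%) and 24.4% with CD147KO-Migs (20.3% to 29.1%). Alpha genes held 1.15% in PBS (0.530% to 2.49%) and 35.3% to 40.0% with Migs. If reads on exons shared within the alpha and gamma clusters were dropped, the beta share is too high in each library.

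**Figure D1:**
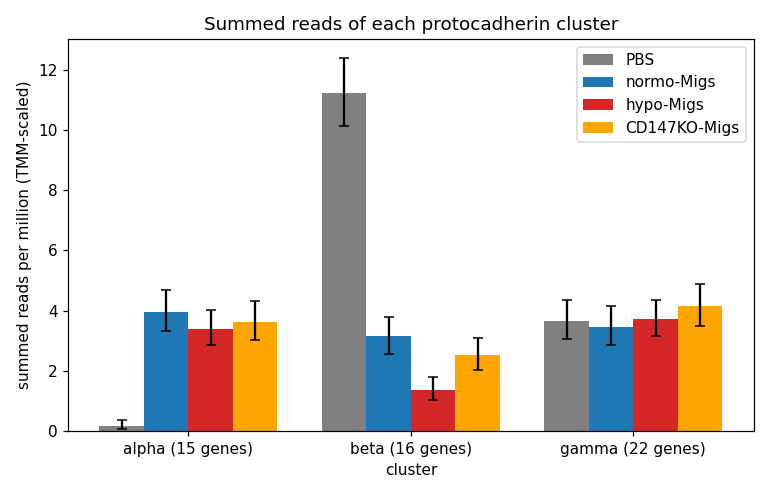
Summed TMM-scaled CPM (y axis) of the alpha, beta and gamma clusters (x axis) in the 4 libraries, with exact 95% Poisson intervals of the reads as error bars. Beta is highest in PBS at 11.2 CPM, alpha is lowest there at 0.174 CPM, and the 4 gamma bars lie between 3.46 and 4.14 CPM.

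**Figure D2:**
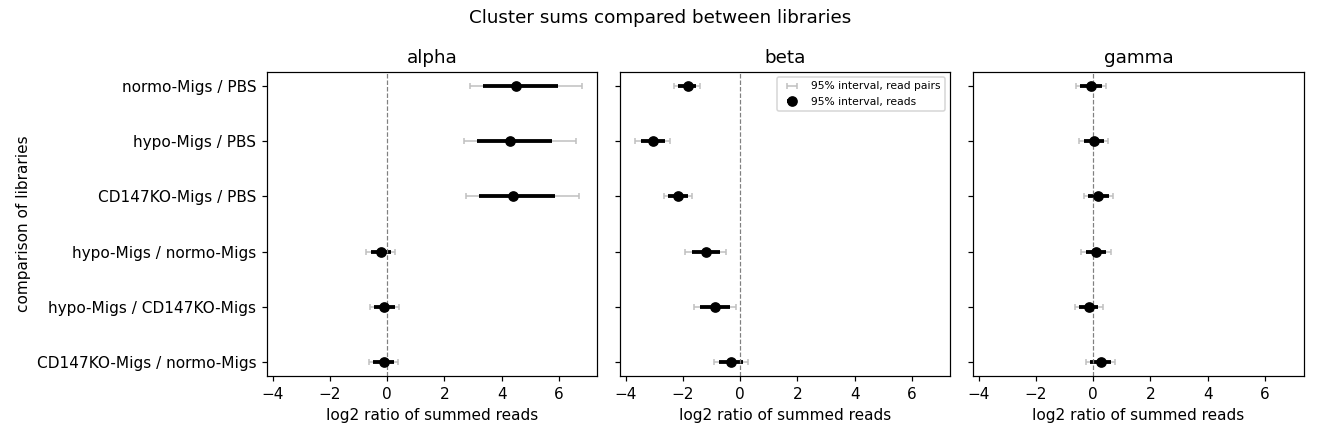
Log2 ratio of summed reads (x axis) for the 6 pairs of libraries (y axis) in the 3 clusters, with exact 95% intervals from reads (thick black) and from read pairs (thin grey). The alpha and beta ratios to PBS lie on opposite sides of 0, and among the pairs of Mig libraries the 2 beta ratios of hypo-Migs lie below 0.

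Members were compared singly where 10 or more reads had been counted in some library, which 31 of the 53 passed (9 alpha, 9 beta and 13 gamma). A member that passed only through the library where it is high had to differ, so these counts describe the libraries and support nothing further. A gene was called where the log2 fold change was at least 1 in size (prior count 2) and the exact 95% interval of the ratio of reads excluded 1. For normo-Migs against PBS, 10 members were called higher and 10 lower, whereas 16.4% of all 19895 genes tested were called higher and 11.0% lower. For hypo-Migs against PBS, 10 were higher and 11 lower, beside 17.5% and 10.9% of all genes. For CD147KO-Migs against PBS, 9 were higher and 11 lower, beside 16.8% and 10.8% of all genes. On read pairs the counts were 6 higher and 7 lower (13.5% and 8.69% of all genes), 8 and 10 (14.5% and 8.99%), and 5 and 8 (14.2% and 8.58%). By cluster, the members called higher than in PBS were 6, 5 and 6 alpha members and 4, 5 and 3 gamma members in the order normo-Migs, hypo-Migs and CD147KO-Migs, with no beta member. The members called lower were 8 beta members in each and 2, 3 and 3 gamma members, with no alpha member. On read pairs, 3, 4 and 4 alpha and 3, 4 and 1 gamma members were called higher, in the same order. Those called lower were 6, 8 and 8 beta and 1, 2 and 0 gamma members. The median log2 fold change of all genes was 0.03, 0.04 and 0.03.

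Alternate alpha members were led by PCDHA4 (ENSG00000204967, chr5:140806929-141012344), which had 0 reads in PBS, and in the Mig libraries 46 (normo-Migs), 35 (hypo-Migs) and 38 (CD147KO-Migs). It was at least 15.5-fold, 10.0-fold and 12.5-fold higher than in PBS, counted against the floor of 3 reads in the PBS library. Such a fold takes the other count as free of error, so the lower end of the exact 95% interval is lower and is given beside it, here 12.1-fold, 7.74-fold and 9.67-fold. Against a floor of 3 read pairs each such fold is divided by 2, here to 7.77-fold, 5.02-fold and 6.24-fold. PCDHA4 held 25.7% to 34.1% of the alpha reads of each Mig library. PCDHA3 had 0, 8, 16 and 16 reads in the order PBS, normo-Migs, hypo-Migs and CD147KO-Migs, at least 2.70-fold, 4.59-fold and 5.26-fold higher than in PBS against the floor (interval ends 1.73-fold, 3.32-fold and 3.80-fold). The call with normo-Migs was lost on read pairs. PCDHA1 was the alpha member with the most reads in PBS, with 4, 11, 12 and 7 reads, and was not called in any comparison. PCDHA2 had 0, 16, 4 and 0 reads, so it was called lower in both other Mig libraries than with normo-Migs. Its log2 fold change was -1.76 with hypo-Migs (interval of the ratio -4.28 to -0.60), and it was at least 5.48-fold lower with CD147KO-Migs (interval end 3.96-fold). PCDHA13 had 0, 0, 1 and 12 reads and was at least 3.89-fold higher with CD147KO-Migs than with normo-Migs (interval end 2.70-fold). With hypo-Migs its log2 fold change against CD147KO-Migs was -2.31 (-9.20 to -1.03). PCDHA11, with 0, 2, 11 and 4 reads, was called higher with hypo-Migs than with normo-Migs, by a log2 fold change of 1.53 (0.03 to 5.44). PCDHA5 had 0, 10, 4 and 8 reads. Most of the alpha reads of the Mig libraries were thus spread over many members with few reads each. Of the 6 alpha members that were not compared singly, PCDHA6 (0, 2, 1 and 7 reads), PCDHA7 (2, 0, 6 and 5), PCDHA8 (0, 1, 1 and 0), PCDHA10 (0, 0, 2 and 6) and PCDHA12 (0, 9, 5 and 6) had at most 9 reads in any library, and PCDHA9 had none.

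C-type genes sit at the 3′ end of the alpha and gamma clusters, next to the constant exons, and differ from the alternate genes in sequence. PCDHAC1 (chr5:140926369-141012344) had 0 reads in PBS, and in the Mig libraries 10 (normo-Migs), 22 (hypo-Migs) and 12 (CD147KO-Migs), at least 3.38-fold, 6.31-fold and 3.94-fold higher than in PBS (interval ends 2.27-fold, 4.71-fold and 2.74-fold). PCDHAC2 (chr5:140966235-141012344) had 0, 20, 16 and 6 reads, at least 6.75-fold, 4.59-fold and 1.97-fold higher than in PBS (interval ends 5.00-fold, 3.32-fold and 1.16-fold). On read pairs the calls of PCDHAC1 with normo-Migs and of PCDHAC2 with CD147KO-Migs were lost. PCDHAC2 was also lower with CD147KO-Migs than with normo-Migs, by a log2 fold change of -1.50 (-3.38 to -0.41), and that call was lost on read pairs. The summed alpha reads without these genes were 6, 105, 98 and 109, so the alternate genes alone were 17.7-fold, 14.0-fold and 17.9-fold higher than in PBS. PCDHGC3 (ENSG00000240184, chr5:141475947-141512979), the only gamma C-type gene with reads, had 12 reads in PBS, and in the Mig libraries 8 (normo-Migs), 6 (hypo-Migs) and 26 (CD147KO-Migs). It was highest in the CD147KO-Migs library. Its log2 fold change was -1.96 for hypo-Migs against CD147KO-Migs (-3.88 to -1.00), and for CD147KO-Migs against normo-Migs it was 1.46 (0.48 to 3.01). On read pairs the first call was kept and the second lost. PCDHGC4 and PCDHGC5 had 0 reads in every library.

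Beta members with the most reads lie side by side at the 3′ end of their cluster. PCDHB13 (ENSG00000187372, chr5:141213919-141218979) had 104 reads in PBS, and in the Mig libraries 13 (normo-Migs), 12 (hypo-Migs) and 7 (CD147KO-Migs). Its log2 fold changes against PBS were -2.81 (-3.94 to -2.14), -3.11 (-4.33 to -2.47) and -3.59 (-5.26 to -2.82). PCDHB14 (chr5:141222932-141227759) had 74, 26, 15 and 19 reads, with log2 fold changes of -1.43 (-2.19 to -0.83), -2.36 (-3.43 to -1.71) and -1.88 (-2.79 to -1.24). Both were above all Mig libraries in PBS, and neither was called between Mig libraries. PCDHB15 (chr5:141245349-141249365) had 69 reads in PBS, and in the Mig libraries 12 (normo-Migs), 12 (hypo-Migs) and 34 (CD147KO-Migs). Against PBS its log2 fold changes were -2.33 (-3.53 to -1.61), -2.54 (-3.76 to -1.85) and -1.00 (-1.68 to -0.43). It was the beta member that separated the CD147KO-Migs library, with a log2 fold change of -1.53 (-2.78 to -0.71) for hypo-Migs against CD147KO-Migs and 1.33 (0.48 to 2.55) for CD147KO-Migs against normo-Migs. Both of these calls were kept on read pairs.

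Several beta members were read almost only in PBS. PCDHB10 had 23 reads in PBS and 0 in each Mig library, at least 7.57-fold, 8.92-fold and 7.78-fold lower with normo-Migs, hypo-Migs and CD147KO-Migs (interval ends 5.67-fold, 6.68-fold and 5.83-fold). PCDHB8 had 22 reads in PBS and 0 in each Mig library, at least 7.24-fold, 8.53-fold and 7.44-fold lower (5.41-fold, 6.37-fold and 5.56-fold). PCDHB9 had 26, 2, 0 and 0 reads. With normo-Migs its log2 fold change was -2.82 (-6.80 to -1.68), and it was at least 10.1-fold and 8.79-fold lower with hypo-Migs and CD147KO-Migs (interval ends 7.63-fold and 6.66-fold). PCDHB16 had 19, 7, 2 and 0 reads and PCDHB11 had 15, 2, 1 and 0 reads. PCDHB16 was at least 2.40-fold lower with CD147KO-Migs than with normo-Migs (interval end 1.48-fold), a call lost on read pairs. PCDHB2, the most 5′ of the beta members with reads, did not share this pattern. It had 16, 27, 12 and 13 reads, was not called against PBS, and was lower with hypo-Migs than with normo-Migs by a log2 fold change of -1.26 (-2.52 to -0.38), a call lost on read pairs. The beta members without 10 reads in any library were PCDHB3 (6, 0, 0 and 0 reads), PCDHB4 (0, 6, 1 and 7), PCDHB5 (2, 8, 0 and 8), PCDHB6 (1, 2, 0 and 0), PCDHB7 (3, 2, 0 and 0), PCDHB12 (8, 0, 0 and 0) and PCDHB1, which had none.

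The gamma sum held members that differed in opposite directions. The shares of gamma members on each side of PBS were near those of all genes, as given below. PCDHGA1 (ENSG00000204956, chr5:141330571-141512981), the first gene of the cluster, had 0 reads in PBS, and in the Mig libraries 13 (normo-Migs), 47 (hypo-Migs) and 25 (CD147KO-Migs). It was at least 4.39-fold, 13.5-fold and 8.21-fold higher than in PBS (interval ends 3.09-fold, 10.5-fold and 6.20-fold). It was also higher with hypo-Migs than with normo-Migs, by a log2 fold change of 1.49 (0.71 to 2.63), a call kept on read pairs, and was not called between hypo-Migs and CD147KO-Migs. PCDHGA6 (chr5:141373914-141512979) had 30, 15, 12 and 13 reads and was highest in PBS. Its log2 fold change against PBS was -1.38 (-2.64 to -0.53) with hypo-Migs and -1.12 (-2.29 to -0.25) with CD147KO-Migs. On read pairs the call with hypo-Migs was kept and that with CD147KO-Migs was lost. PCDHGA2, the gene next to PCDHGA1, had 20, 2, 0 and 6 reads. It was at least 7.75-fold lower with hypo-Migs than in PBS (interval end 5.74-fold), and its log2 fold change was -2.47 (-6.44 to -1.26) with normo-Migs and -1.48 (-3.36 to -0.39) with CD147KO-Migs. The call of PCDHGA2 with CD147KO-Migs was lost on read pairs. Hence neighbouring genes that splice to the same constant exons, PCDHGA1 and PCDHGA2, had opposite orders of PBS and hypo-Migs reads. PCDHGB2 had 16, 5, 4 and 6 reads, and its log2 fold change with hypo-Migs was -1.74 (-4.26 to -0.59), a call lost on read pairs.

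Other gamma members varied among the Mig libraries. PCDHGB1 had 0 reads in PBS, and in the Mig libraries 14 (normo-Migs), 19 (hypo-Migs) and 3 (CD147KO-Migs), and was higher with hypo-Migs than with CD147KO-Migs by a log2 fold change of 1.90 (0.70 to 4.87). PCDHGB6 had 0, 13, 0 and 10 reads. With hypo-Migs it was at least 5.10-fold lower than with normo-Migs (interval end 3.59-fold) and at least 3.82-fold lower than with CD147KO-Migs (2.57-fold), and both calls were kept on read pairs. PCDHGB4 had 2, 10, 0 and 6 reads and was at least 3.93-fold and 2.29-fold lower with hypo-Migs in the same comparisons (interval ends 2.64-fold and 1.35-fold), of which the second was lost on read pairs. PCDHGA10 (7, 8, 6 and 18 reads) was lower with hypo-Migs than with CD147KO-Migs by a log2 fold change of -1.47 (-3.40 to -0.39). PCDHGA5 (0, 4, 14 and 2 reads) and PCDHGA11 (0, 2, 14 and 4 reads) were highest with hypo-Migs. PCDHGA5 was called higher there than with CD147KO-Migs, by 1.84 (0.49 to 5.79) on the log2 scale, and PCDHGA11 was called higher than with normo-Migs, by 1.82 (0.45 to 5.75). PCDHGB5 had 2, 4, 14 and 6 reads and PCDHGB3 had 11, 4, 4 and 8. The 9 gamma members with fewer than 10 reads in every library were PCDHGA3 (0, 2, 0 and 0 reads), PCDHGA4 (8, 0, 4 and 8), PCDHGA7 (8, 4, 0 and 0), PCDHGA8 (6, 0, 0 and 0), PCDHGA9 (1, 0, 4 and 2), PCDHGA12 (0, 8, 1 and 2), PCDHGB7 (3, 2, 0 and 0), and the C-type genes PCDHGC4 and PCDHGC5.

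Of the 49 members with a read in any library, 16 lay lower in PBS than in each Mig library (32.7%) and 19 lay higher (38.8%), after TMM scaling. Of all 31098 genes with at least 1 read, 30.8% lay lower and 35.0% higher in PBS, so the total split of the members was near the background. The split by cluster was 9 lower and 0 higher of 14 alpha members with reads, 1 lower (PCDHB4) and 11 higher of 15 beta members, and 6 lower and 8 higher of 20 gamma members. The 6 gamma members that were lower in PBS had 2 reads there in sum, and 45, 109 and 42 with normo-Migs, hypo-Migs and CD147KO-Migs. The 8 that were higher had 102 reads in PBS and 32, 24 and 41 in the Mig libraries. The gamma shares, 30% lower and 40% higher in PBS, were near those of all genes. These gamma groups were formed from the reads themselves and are a description only.

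**Figure D3:**
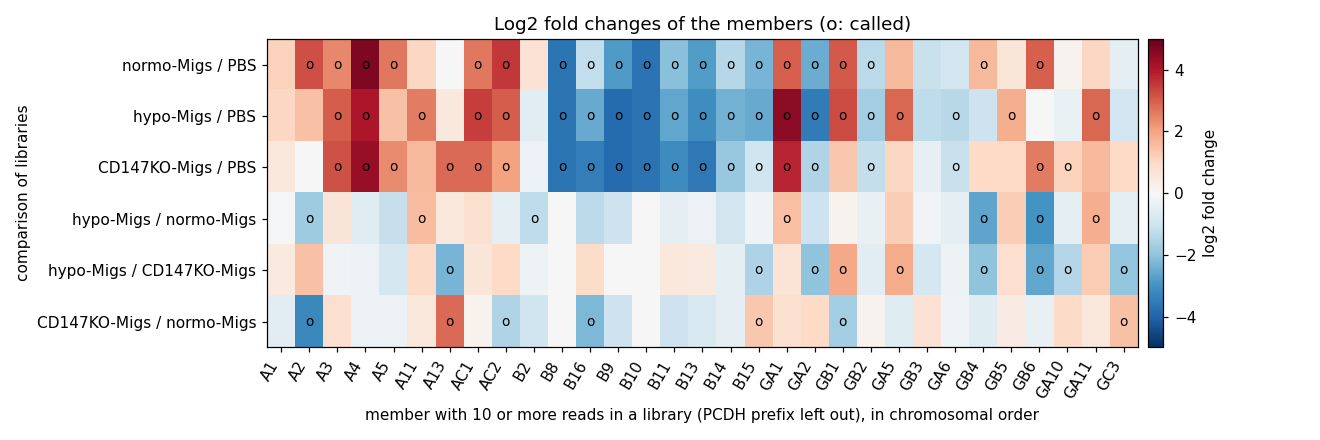
Log2 fold change (colour, prior count 2) of the 31 members that had 10 reads or more in a library (x axis, chromosomal order) in the 6 pairs of libraries (y axis), with a circle where a member was called. Alpha members are mostly red and beta members mostly blue in the upper 3 rows, gamma members mix both colours, and the lower 3 rows, which compare Mig libraries, hold 7, 9 and 7 circles.

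Between Mig libraries the calls were few. For hypo-Migs against normo-Migs, 3 members were called higher and 4 lower, beside 3.64% and 3.02% of all genes. For hypo-Migs against CD147KO-Migs, 2 were higher and 7 lower, beside 3.44% and 3.21% of all genes. For CD147KO-Migs against normo-Migs, 3 were higher and 4 lower, beside 3.72% and 3.01% of all genes. On read pairs these counts were 1 (PCDHGA1) and 2 (PCDHGB4 and PCDHGB6), 0 and 4 (PCDHA13, PCDHB15, PCDHGB6 and PCDHGC3), and 2 (PCDHA13 and PCDHB15) and 1 (PCDHA2), so the other calls between Mig libraries were lost. The shares of all genes called on read pairs were 1.36% higher and 1.39% lower, 1.41% and 1.41%, and 1.44% and 1.21%. Across members, Spearman's rho between Mig libraries was 0.32 to 0.68 over 15 alpha members, 0.73 to 0.83 over 16 beta members and 0.44 to 0.61 over 22 gamma members. Against PBS, rho was -0.05 to 0.19 for alpha, 0.31 to 0.53 for beta and -0.06 to 0.39 for gamma. The alpha cluster had 6 reads on 2 members in PBS, so its rho there rests on ties at 0 and cannot show likeness. For beta, the ranges of Pearson's r overlapped, with 0.53 to 0.81 against PBS and 0.68 to 0.90 between Mig libraries. These values are across genes, which are not independent replicates, and the members share library, depth and, within a cluster, exons.

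Genes known to act with the clusters were also examined, and their counts are to be read against the 16.4% to 17.5% of all genes called higher and the 10.8% to 11.0% called lower than in PBS. Of 11 genes of CTCF and cohesin, which set promoter choice in the clusters, all passed the filter on reads. Against PBS, 0, 1 and 0 of them were called higher and 1, 0 and 0 lower with normo-Migs, hypo-Migs and CD147KO-Migs, fewer than the share of all genes would give, and their median log2 fold changes were 0.06, 0.05 and -0.10. CTCF itself had 3492, 3283, 3792 and 2859 reads. RAD21, the cleavable cohesin subunit, had 9803 reads in PBS and 18487, 22924 and 19726 with Migs. Its log2 fold changes were 0.93, 1.01 and 0.99, so the call with hypo-Migs (interval 0.97 to 1.04) was set apart only by the cutoff of 1. STAG1, an alternative cohesin subunit, had 3270, 1569, 1911 and 1730 reads. Its log2 fold changes were -1.04, -0.99 and -0.94, of which that with normo-Migs passed the same cutoff. SMC3, another cohesin subunit, had a log2 fold change of 0.47 with hypo-Migs.

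Of 15 genes that silence or demethylate chromatin, 2 were called higher in each comparison against PBS and 1, 0 and 0 lower, a share near that of all genes for the higher calls, with medians of -0.05, -0.03 and -0.05. DNMT3B, a de novo DNA methyltransferase, had 198 reads in PBS and 1634, 1917 and 1633 with normo-Migs, hypo-Migs and CD147KO-Migs, and its log2 fold changes were 3.05, 3.05 and 3.01. TET1, which oxidises 5-methylcytosine, had 0, 80, 128 and 82 reads and was at least 27.0-fold, 36.7-fold and 26.9-fold higher than in PBS (interval ends 21.5-fold, 29.4-fold and 21.4-fold). LRIF1, a partner of the silencing protein SMCHD1, had 916, 392, 582 and 485 reads. Its log2 fold changes were -1.20, -0.87 and -0.94, of which that with normo-Migs was called. SMCHD1 had 3928, 3766, 4865 and 3999 reads. None of these regulators was called between Mig libraries.

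Of 20 effectors and proteases of protocadherins, 3 were called higher and 1 lower in each comparison against PBS, near or below the shares of all genes, with medians of 0.13, 0.16 and 0.08, and none between Mig libraries. FYN, a Src-family kinase, had 469, 2071, 2643 and 2254 reads, RET, a receptor tyrosine kinase that binds protocadherins, had 0, 122, 163 and 126, and CYFIP2, a subunit of the WAVE complex that binds alpha protocadherin tails, had 25, 834, 1088 and 948. WASF2, the gene called lower (named after its reads were seen), had 8041, 3930, 4383 and 3754 reads and belongs to the same complex. Among 11 non-clustered protocadherins, 7 passed the filter on reads, and 3, 2 and 3 were called higher and 1 lower in each comparison against PBS, where the same 16.4% to 17.5% and 10.8% to 11.0% of all genes were called. PCDH10, a delta protocadherin, had 272 reads in PBS and 0, 0 and 2 with normo-Migs, hypo-Migs and CD147KO-Migs, whereas PCDH9 had 163, 553, 711 and 598. PCDH7 had 1849, 1251, 1410 and 1073 reads, so it was read far more than any clustered member. PCDH11X, with 0, 10, 1 and 10 reads, was the gene of this list that was called between Mig libraries, lower with hypo-Migs than in the others (named after its reads were seen). Both of its calls were lost on read pairs.

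The 31 protein-coding genes within 500 kb of the clusters were compared to see how far the pattern reached. Of these, 28 passed the filter on reads, and 2, 3 and 3 were called higher than in PBS with normo-Migs, hypo-Migs and CD147KO-Migs and none lower, both below the shares of all genes (16.4% to 17.5% and 10.8% to 11.0%). Their median log2 fold changes were 0.62, 0.47 and 0.52, above the medians of all genes. CD14, a receptor of myeloid cells that is also among the immune markers, had 14, 47, 78 and 86 reads, HBEGF, an EGF receptor ligand, had 146, 398, 432 and 367, and APBB3, an adaptor protein, had 350, 589, 850 and 684. Between Mig libraries, SLC4A9 and EIF4EBP3 were called, with at most 17 reads in any library (named after their reads were seen). The part of chromosomal position in these values was not tested. Antisense transcription is known to open alpha promoters. The 13 noncoding antisense genes within the span had at most 1 read in any library, and 19 members have exon bases that overlap a gene on the other strand. According to the paper, mRNA was purified with poly-T beads, and reads on overlapping genes may not have been counted. These counts therefore do not show whether antisense transcription occurred. Use of strand in the counting was not given in the sources used here. Without these members, the beta log2 ratio to PBS was -2.30 with normo-Migs and -2.85 with CD147KO-Migs.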

How the data were processed

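RNA-seq of MHCC-97H cells comprised 4 libraries, 1 per condition. According to the submitters' processing notes, the tools were CASAVA 1.8, fastp, HISAT2 2.0.5 and featureCounts 1.5.0-p3 on hg38. The authors deposited raw counts of reads per gene, without normalization, and FPKM, which scale reads by depth and by the deposited gene length in bases. The divisor for depth differed from the total of reads on genes. Gene identifiers and coordinates matched GENCODE release 29.

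The 19895 genes that reached 10 reads in some library were tested. Scaling used TMM (edgeR 4.0.16, R 4.3.3), and log2 fold changes a prior count of 2. With 1 library per condition no replicate-based test was possible. Ratios of reads were given exact 95% Clopper-Pearson intervals, which compare libraries and not conditions, and no p-value was computed. Calls needed a fold of 2 and an interval excluding 1. The calls were tested on simulated data for hypo-Migs against normo-Migs with counting error alone, where all 200 genes changed 4-fold among 19895 were recovered and 117 of the 19695 unchanged genes were called. The changed genes were drawn only from genes above a minimum of expected reads in normo-Migs that most members did not reach. Recovery at the depth of most members, and separate counting of mates, were not simulated. Python 3.11.15 with scipy 1.17.1 was used. DESeq2 1.42.0 gave alternative size factors.

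The members and gene lists were chosen with earlier results of these data known. In each cluster the 5 members with the highest mean level, the C-type genes, all members called between Mig libraries and the 2 largest and 2 smallest fold changes of hypo-Migs against PBS were named. In each list and among the neighbours the 3 largest changes with a mean of at least 50 reads were named. Other members were named to account for all of them. Alternatives concerned scaling, filter, prior count, FPKM, call rule and left-out members.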

Additional observations from a re-analysis of the deposited data

How the results depend on the processing

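No paired analysis was possible because each condition had 1 library, and for the same reason no replicate could be left out. Scaling by total reads, DESeq2 size factors or upper quartiles, a prior count of 0.25 and the interval alone left the counts of called members within 1.5 times and the cluster ratios within their intervals, and no called value changed sign under any alternative tried. With at least 10 reads in every library, 0, 0, 0, 0, 0 and 1 members were called higher and 2, 3, 3, 1, 1 and 0 lower, in the order normo-Migs, hypo-Migs and CD147KO-Migs against PBS, hypo-Migs against normo-Migs, hypo-Migs against CD147KO-Migs and CD147KO-Migs against normo-Migs. That filter leaves few members by its construction. On log2(FPKM + 1), 0 members were called in any comparison, since all lie below 1 FPKM, and the cluster differences from PBS were 0.55, 0.49 and 0.51 for alpha and -1.07, -1.48 and -1.18 for beta, while those of hypo-Migs from normo-Migs and CD147KO-Migs were -0.40 and -0.29 for beta. By fold alone, hypo-Migs against normo-Migs gave 5 higher and 8 lower and hypo-Migs against CD147KO-Migs gave 5 higher. Without a filter, 5 were higher with CD147KO-Migs than with normo-Migs. Without PCDHGA1, the gamma log2 ratio of hypo-Migs was -0.52 to PBS, -0.43 to CD147KO-Migs and -0.28 to normo-Migs. The intervals of the ratios to PBS and to CD147KO-Migs then excluded 0 on reads, but the member left out was chosen by its reads, which were most with hypo-Migs. The remaining alternatives were chosen after seeing the data. On read pairs the counts fell to 6 higher with normo-Migs and 5 with CD147KO-Migs against PBS, 1 higher and 2 lower for hypo-Migs against normo-Migs, 0 and 4 for hypo-Migs against CD147KO-Migs, and 1 lower for CD147KO-Migs against normo-Migs. Without members that overlap a gene on the other strand, the beta log2 ratio was -2.30 (normo-Migs) and -2.85 (CD147KO-Migs) to PBS and -0.43 for hypo-Migs to CD147KO-Migs, where the interval no longer excluded 0, and the gamma ratio of CD147KO-Migs to normo-Migs was 0.41, with an interval that now did. Without PCDHB15, the beta ratios were -2.58 for CD147KO-Migs to PBS, -0.53 for hypo-Migs to CD147KO-Migs (call lost) and -0.85 for CD147KO-Migs to normo-Migs (call gained). That member was chosen after its reads were seen, which among the Mig libraries were most with CD147KO-Migs. Depth limits most members, which had under 30 reads in each library.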

Other observations

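Other transcripts within the span of the clusters also had few reads. The beta pseudogene PCDHB17P had 6 reads in PBS and 0 in each Mig library, and PCDHB18P had 6, 2, 0 and 0 reads in the order PBS, normo-Migs, hypo-Migs and CD147KO-Migs. Both were thus read most in PBS, as were most beta genes, and reads of near-identical copies may be split between them. The gamma pseudogene PCDHGB8P had 1, 0, 2 and 6 reads. The long intergenic noncoding RNA AC005618.1 had 4, 20, 29 and 12 reads, lowest in PBS.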
